A study of Mus musculus with 83 samples.

Results

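The protein-coding genes for the large (60S) subunit of the cytoplasmic ribosome were followed through a series of RNA polymerase II (Pol II) CUT&Tag libraries from mouse embryonic stem cells. The 45 genes were taken by name (Rplp0 to Rplp2 and the Rpl genes, without their paralogs and pseudogenes) from the gene count tables, which list 27752 genes for C64 cells and 55367 genes for B8 cells. Of the 45, 41 carried enough counts to be tested in each comparison. CUT&Tag places a transposase next to an antibody on chromatin, so a count over a gene measures how much Pol II sits on it, here called Pol II occupancy, and not how much RNA is made.

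The study asked whether Pol II transcription in mouse embryonic stem cells needs the TATA-box binding protein (TBP) or its paralog TRF2, the product of Tbpl1. All cells derive from the JM8.N4 line and carry GFP on histone H3.3, a HaloTag on the largest Pol II subunit and, on both Tbp alleles, a minimal auxin-inducible degron at the N-terminus, so indole-3-acetic acid (IAA, 500 µM) triggers degradation of TBP. Some TBP can remain after IAA. Of the 83 samples of the series, the 24 Pol II libraries with gene counts are used here.

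C64 cells carry these tags and keep Tbpl1. In sequencing run 2 they were left as controls, given IAA for 6 h, heat shocked at 42 °C for 30 min, or given IAA for 6 h and then heat shocked with IAA. In run 3 they were left as controls or given IAA, retinoic acid, or both for 16 h. Each of these 8 groups has 2 libraries, called a and b in run 2 after their column names and 1 and 2 in run 3. B8 cells are a single clone of C64 with the whole Tbpl1 gene deleted, kept as controls or given IAA for 6 h, with 2 libraries of each in run 6 and 2 in run 8. According to the paper, controls received DMSO unless it states otherwise.

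A ribosome's large subunit is built from RNAs made by Pol I, 5S RNA made by Pol III, and proteins that Pol II genes encode. It forms the peptide bonds of every protein a cell makes. Ribosomal protein genes are short, transcribed at high rates in growing cells, and in mammals usually start within a run of pyrimidines, the TOP motif through which their mRNAs are regulated, rather than below a TATA box. In Drosophila, TRF2 and not TBP has been linked to genes of this kind, which makes the family informative in cells that lack TBP, TRF2 or both.

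The start sites of some genes that passed the test in a comparison are shown to let the place of a pyrimidine run be seen. It spans the annotated start in Rplp2 and Rpl34, lies after it in Rpl13a and wholly before it in Rpl22, Rpl5 and Rpl39. No run reaches 8 bases in Rpl12, Rpl23 and Rpl10, whose longest are 7, 6 and 6 bases. Rpl6, Rpl18, Rpl26 and Rpl38 passed too and are not shown. Their run lies after the start in Rpl6, Rpl18 and Rpl26 and spans it in Rpl38. Rpl22 has another annotated start, not shown, whose longest run is 5 bases. Another start of Rpl34, also not shown, has a run of 8 bases wholly before it. Each sequence is taken from the RefSeq promoter table for GRCm38.p6 and gives 40 bases before and 40 bases from the annotated start on, 5′ to 3′ on the gene's strand, with the longest run of C or T in capitals where it reaches 8 bases.
Rpl22 (chr4:152325686-152325765, plus strand): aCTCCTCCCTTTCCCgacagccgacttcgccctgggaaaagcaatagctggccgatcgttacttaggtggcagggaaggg
Rpl5 (chr5:107900488-107900567, plus strand): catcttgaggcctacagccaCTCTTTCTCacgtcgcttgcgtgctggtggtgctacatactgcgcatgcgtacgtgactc
Rpl39 (chrX:37085183-37085262, minus strand): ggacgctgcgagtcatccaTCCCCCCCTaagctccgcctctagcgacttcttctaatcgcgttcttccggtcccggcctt
Rplp2 (chr7:141447611-141447690, plus strand): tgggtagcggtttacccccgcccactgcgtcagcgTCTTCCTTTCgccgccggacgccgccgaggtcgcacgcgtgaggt
Rpl12 (chr2:32961672-32961751, plus strand): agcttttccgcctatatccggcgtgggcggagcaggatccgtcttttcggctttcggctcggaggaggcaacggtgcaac
Rpl23 (chr11:97782400-97782479, minus strand): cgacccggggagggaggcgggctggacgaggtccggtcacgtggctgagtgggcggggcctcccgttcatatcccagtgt
Rpl34 (chr3:130730298-130730377, minus strand): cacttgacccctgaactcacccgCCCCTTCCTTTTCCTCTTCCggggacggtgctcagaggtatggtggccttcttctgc
Rpl13a (chr7:45128706-45128785, minus strand): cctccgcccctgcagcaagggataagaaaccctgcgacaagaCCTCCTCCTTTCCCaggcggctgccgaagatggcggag
Rpl10 (chrX:74270776-74270855, plus strand): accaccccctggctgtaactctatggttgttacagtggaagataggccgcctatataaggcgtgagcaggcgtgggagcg

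The table held 40 start sites of 34 members. A run of 8 or more C or T within these 80 bases was found at 31 of the 40 (77.5%), against 29.3% of the 32851 mouse promoters in the table and 64.3% of 28 start sites of small-subunit genes. The longest run had a median of 10.5 bases at the members and 6 bases over all promoters. The letters TATAAA, searched on the gene's strand 40 to 20 bases before the start, were at 0 of the 40 sites and at 1.87% of all promoters. The shorter TATA, which also matches inside TATAAA, was at 2 sites (5%), those of Rpl12 and Rpl4, and at 5.34% of all promoters. Rpl3, Rpl7, Rpl8, Rpl17, Rpl21, Rpl23a, Rpl29, Rpl30, Rpl32, Rpl36 and Rplp1 are named only.

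Library totals over the 27752 genes ran from 3854622 to 5056322 counts in C64. B8 libraries were shallower, with 2330887 to 2523832 counts in run 8 and 900651 to 1157308 in run 6, which gave the least precise values. Counts scaled to a common library total (CPM, per 1e6) below use edgeR's TMM scaling, which sets the typical gene to no change, so a loss of Pol II shared by all genes would not appear. In C64, libraries of a group correlated at 0.917 to 0.973 over genes. Library 2 of run 6 B8 controls stood apart from the other 3 B8 controls (0.839 to 0.897). The deleted Tbpl1 stood at 0 to 4.34 CPM in the B8 libraries, below the 6.2 to 15.8 CPM of the C64 libraries. Embryonic stem cell markers were present in all groups, except Sox2, which is listed at 0 in every library. Since a read pair over 2 annotated genes is not counted, a 0 need not mean that no Pol II was there. The summed level of the markers was 507 to 761 CPM after retinoic acid against 1135 to 1731 CPM in its controls. P-values measure the spread between these libraries. The paper calls its Pol II replicates biological. Nothing in the labels says that they come from separate cultures, so the spread may be technical. In such bulk libraries, fewer cells with Pol II on a gene and less Pol II per cell cannot be told apart.

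Control occupancy differed widely across the family. Per kilobase of gene not shared with another annotated gene, the mean of the 4 C64 controls was highest for Rpl13a at 78.5 CPM per kb ± 27.3 (SD, n = 4), but that value rests on 364 bases at the 3′ end, since the rest of the gene is covered by another annotated gene, Gm45713, and such shared bases give no counts. Rpl38 (chr11:114668524-114672331), which is counted over its whole length, followed at 39.95 CPM per kb ± 12.97 (SD, n = 4), then Rpl12 at 34.4 and Rpl3 at 32.6. The lowest were Rpl11 at 4.02 ± 1.08, whose annotated span is 25164 bases, Rpl10 at 4.33 ± 2.26 and Rpl36a at 4.98 ± 1.03 (all SD, n = 4). These 3 were separated from Rpl38 and Rpl12 by more than the SD, while Rpl12 and Rpl3 did not differ beyond theirs. In CPM without regard to length, Rpl3, a protein at the peptidyl transferase centre, took the most Pol II, with 643 and 429 CPM in controls a and b of run 2 and 412 and 229 CPM in controls 1 and 2 of run 3.

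Another 4 members could not be followed. Rpl13, Rpl35 and Rpl35a lie wholly inside the annotated intervals of Galnt2l, Wdr38 and Gm17106, had 0 bases of their own and were at 0 counts in all libraries that list them. Rpl24, of which Gm28037 covers 98.7%, collected 135 counts over all 24 libraries and did not pass the filter. Rpl18 shares 47.3% of its span with Sphk2 on the opposite strand and Rpl23a 39.5% with Tlcd1 and small RNAs. Since the counting did not use strand, Pol II on the unshared bases of a member cannot be told apart from Pol II that runs in from such a neighbour. Rows named as pseudogenes of members held 1.37% to 6.06% of the counts that the members held in a B8 library, and reads that fit both copies equally are uncertain.

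**Figure D1:**
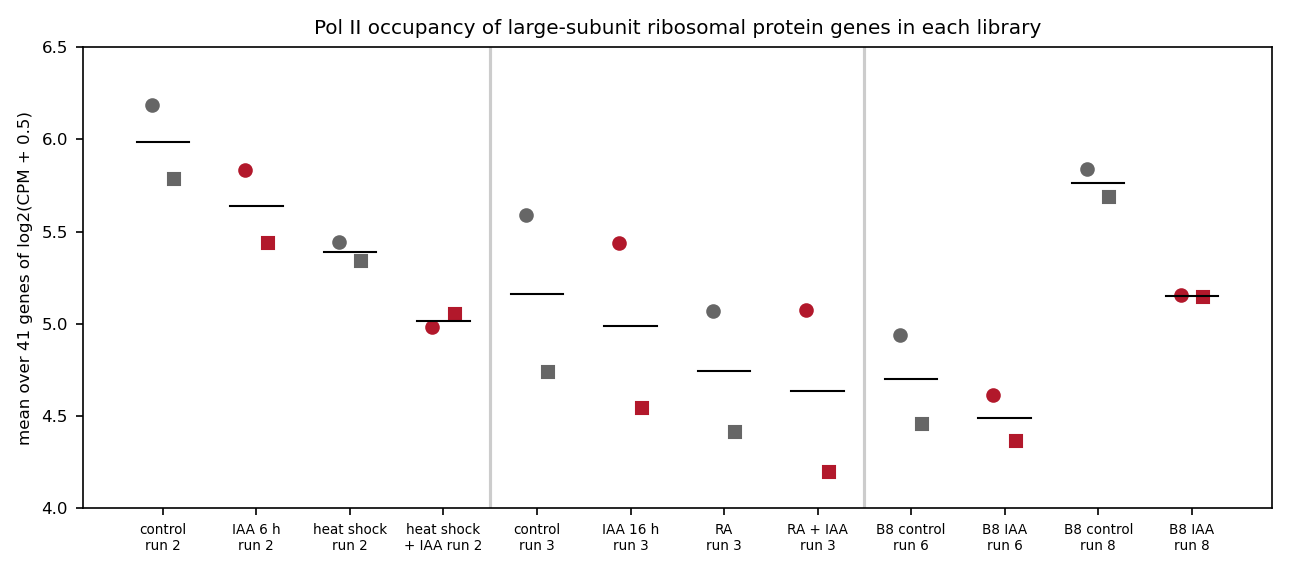
Each symbol is 1 Pol II library and shows the mean over the 41 tested genes of log2(CPM + 0.5), with grey for libraries without IAA, red for those with IAA, circles and squares for the 2 libraries of a group and a line at their mean. The mean of the 2 IAA libraries lies below that of the libraries without IAA in each C64 context and in each B8 run, and library 2 of run 3 is below library 1 in all 4 groups.

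The first question was whether the family needs TBP in unperturbed cells. After 6 h of IAA in C64, all 41 genes had a log2 fold change below 0, with a median of -0.37 against 0.00 over the 16157 genes tested, and their summed occupancy was 3156 and 2412 CPM with IAA against 4096 and 3033 CPM in controls a and b. Set a was above set b in both groups, and the groups overlap. Summed stem cell markers were at 1164 to 1170 CPM with IAA and 1297 to 1514 CPM in controls, ranges that do not overlap, and their part in the result was not tested. No member passed edgeR's quasi-likelihood test at an adjusted p of 0.05 (12 had an unadjusted p under 0.05, and DESeq2 and the likelihood-ratio test called 0), where 0.0433% of all genes did. Both IAA libraries lay below both controls for 20 members, as they did for 14.2% of all genes.

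Libraries of a set moved together in run 2, so the same comparison was also made within sets, with the set as a block. That fit called 15 of the 41 genes, all lower, where it called 1.19% of all genes. With 2 pairs it leaves 1 residual degree of freedom and takes its spread almost wholly from the other genes, so its p-values rest on the assumption that the members vary like other genes of their level. The 15 were Rplp0, Rplp1, Rpl3, Rpl4, Rpl5, Rpl6, Rpl8, Rpl10a, Rpl12, Rpl13a, Rpl22, Rpl23, Rpl23a, Rpl30 and Rpl37.

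Rpl10a, a protein of the L1 stalk, had the lowest value of the family, with 94.8 and 46.4 CPM in controls a and b and 54.6 and 27.9 CPM after IAA, lower within each set while the groups overlap (-0.77 ± 0.35, SE, edgeR adjusted p = 1, with the block 9.858e-06). The acidic stalk recruits the GTPases of translation. Rplp0, its scaffold, had 86.8 and 63.1 CPM in controls a and b and 53.5 and 36.8 CPM after IAA, and Rplp1 had 43.73 and 31.01 CPM against 25.0 and 21.2. IAA libraries were the lower in both sets for both genes, and their ranges did not overlap those of the controls. The log2 fold changes were -0.72 ± 0.22 (SE) for Rplp0 and -0.69 ± 0.22 for Rplp1, with an edgeR adjusted p of 1 for each without the block and of 1.173e-05 and 0.0107 with it. Rplp2 is part of the stalk too, and Rpl12 sits at its base. The 4 genes of the stalk and its base had a median of -0.60, from -0.72 for Rplp0 to -0.37 for Rplp2, the median of the family.

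Rpl22, a surface protein near the exit tunnel, fitted the same description, with 165 and 191 CPM in controls and 125 CPM in each IAA library (-0.51 ± 0.15, edgeR adjusted p = 1, with the block 0.00018). At the other end, Rpl29 had 38.06 and 26.09 CPM in controls and 34.9 and 27.7 CPM after IAA, and Rpl26 had 217 and 148 CPM against 213 and 142 CPM. Their fold changes of -0.03 ± 0.23 and -0.03 ± 0.22 were within their errors of 0, and whether they differ from the other members was not tested.

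**Figure D2:**
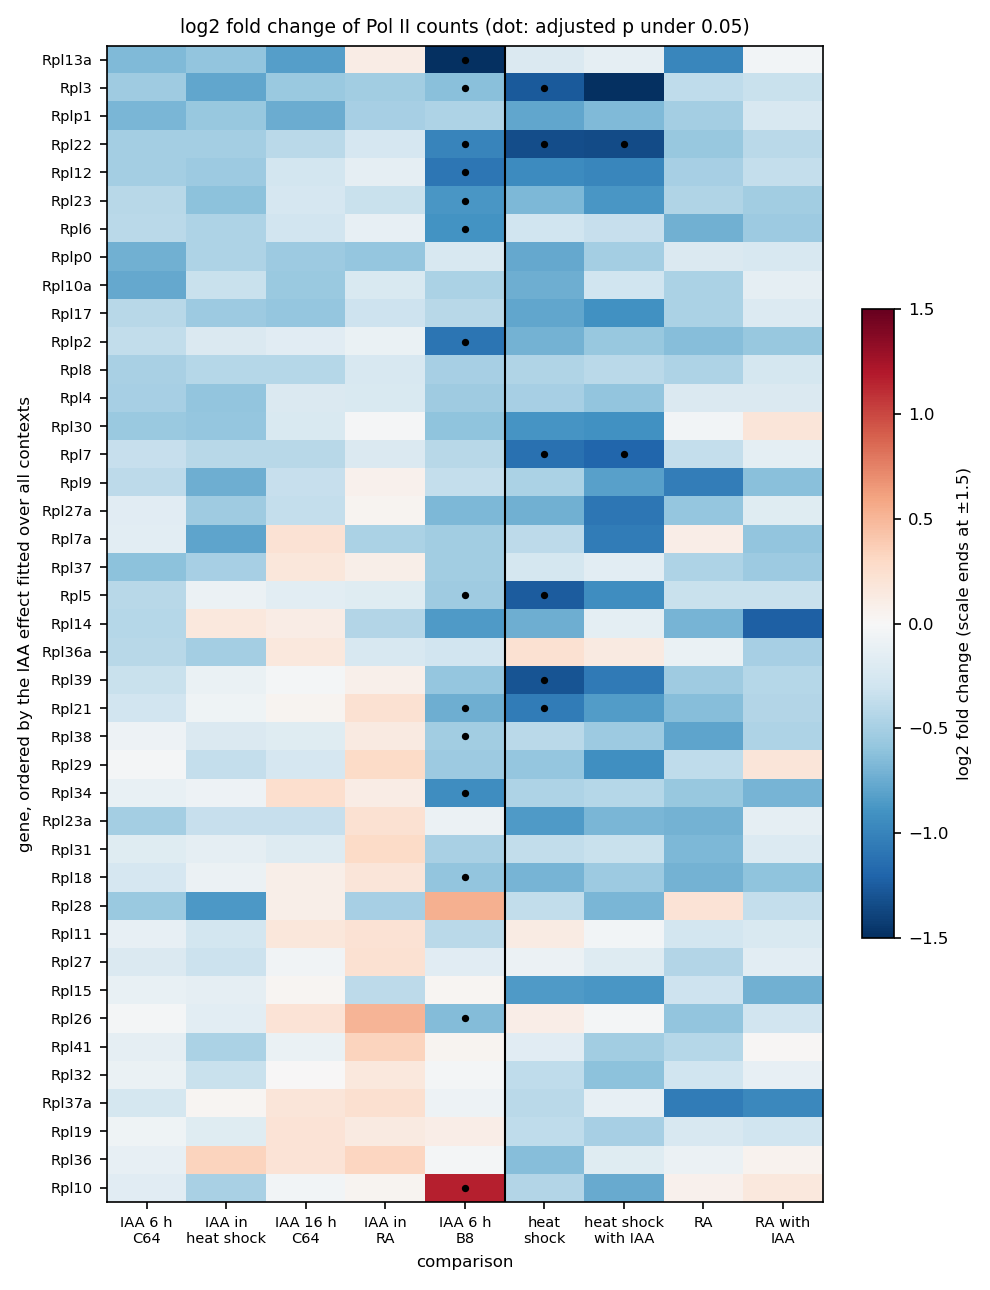
Colour gives the log2 fold change of each of the 41 tested genes (rows, ordered by the IAA effect fitted over all contexts) in 9 comparisons (columns), blue for less and red for more Pol II, with a dot where the edgeR adjusted p is under 0.05. The 5 IAA comparisons stand left of the line and the heat shock and retinoic acid (RA) comparisons right of it; neighbouring columns can share libraries.

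In the 16 h experiment, which was another sequencing run, the median after IAA was -0.16 against 0.01 over all genes, and 26 of 41 members were below 0. No member passed (0 at an unadjusted p under 0.05, and 0 by DESeq2 and by the likelihood-ratio test), as no other gene did (0%), and for 0 members did the 2 IAA libraries lie below both controls, against 14.1% of all genes. The spread is visible in the library means, since the summed occupancy was 2770 and 1497 CPM in controls 1 and 2 and 2409 and 1281 CPM after IAA. Library 2 was the lower in each group by more than IAA changed either.

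With the library number as a block, 3 members were called lower, where 2.16% of all genes were called. Rpl3 had 412 and 229 CPM in controls and 271 and 162 CPM with IAA, the lower value in each pair (-0.55 ± 0.11, edgeR adjusted p with the block 0.000107). Rpl13a (-0.81 ± 0.24) and Rpl22 (-0.45 ± 0.13) were the others. Rplp1 had the smallest p without the block, with 36.4 and 15.6 CPM in controls against 17.4 and 13.4 CPM, a log2 fold change of -0.75 ± 0.40 and an adjusted p of 0.999. Rpl34 was highest at 0.25 ± 0.41, with 42.5 and 23.6 CPM in controls and 54.12 and 23.96 CPM with IAA.

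IAA was also given during heat shock and during retinoic acid. In heat-shocked cells the median of the members with IAA was -0.41 against -0.01 over all genes, 38 of 41 were below 0, and the 2 IAA libraries were the lower for 23 members, against 12.1% of all genes. Beside this, summed stem cell markers were at 1877 to 2074 CPM with IAA and 2313 to 2475 CPM without, and their part in the result was not tested. The test called 0 members and 0% of all genes (5 members at an unadjusted p under 0.05, 0 by DESeq2 and by the likelihood-ratio test). With the block, 5 members passed (0.65% of all genes), namely Rpl3, Rpl4, Rpl7a, Rpl9 and Rpl23. Rpl3 had 155 and 291 CPM in heat shock and 69.6 and 188 CPM with IAA added (-0.86 ± 0.13 with the block, edgeR adjusted p = 3.349e-08). Libraries of the 2 groups overlap for Rpl3, and the lower value belongs to IAA within each set.

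In retinoic acid the members showed no common direction with IAA. Their median was 0.04 against 0.02 over all genes, 20 of 41 were below 0, and the lower libraries were both from IAA for 1 member against 10.2% of all genes. None passed, nor did any other gene (0%, with 0 members at an unadjusted p under 0.05, by DESeq2 and by the likelihood-ratio test). The block called 2 members among 1.04% of all genes, in opposite directions. Rpl3 had 323 and 170 CPM without and 233 and 108 CPM with IAA (-0.54 ± 0.10, edgeR adjusted p with the block 0.000523), whereas Rpl26, at the rim of the exit tunnel, had 98.3 and 62.8 CPM without and 146 and 80.5 CPM with IAA (0.49 ± 0.13, 0.0324). Both libraries moved the same way within each pair, and the ranges of the groups overlap.

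The same 6 h of IAA was given to cells without TRF2. In B8, with the run as a term, 14 of 41 members passed the test, 13 lower and 1 higher, where 5.82% of the 13219 genes tested passed. The median was -0.52 against -0.01 over all genes, and 36 members were below 0. Within each run both IAA libraries lay below both controls for 15 members, against 7.83% of all genes. The block, whose numbers did not pair these libraries, called 10 members, all lower, and 3.4% of all genes.

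Rpl13a had the steepest change, measured on its 364 unshared bases at the 3′ end. Its controls were at 26.8 and 12.4 CPM in run 6 and 28.1 and 20.0 CPM in run 8, and its IAA libraries at 5.94 and 5.86 CPM in run 6 and 6.94 and 4.25 CPM in run 8. All 4 IAA libraries lay below all 4 controls (-1.94 ± 0.32, edgeR adjusted p = 0.00237).

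Among stalk genes, Rplp2 and Rpl12 passed and Rplp0 and Rplp1 did not. Rpl12 (chr2:32961559-32965345) went from 81.2 and 48.4 CPM in run 6 and 124 and 105 CPM in run 8 to 37.3 and 26.8 CPM and 49.5 and 54.0 CPM, with the groups apart in each run (-1.09 ± 0.16, edgeR adjusted p = 0.00127). Rplp2 went in run 8 from 94.9 and 79.7 CPM to 29.1 and 31.5 CPM but overlapped in run 6, with 38.5 and 26.8 CPM against 29.7 and 20.1 CPM (-1.10 ± 0.22, adjusted p = 0.00878). Rplp0 had 39.3 and 30.9 CPM against 46.6 and 26.8 CPM in run 6 and 54.3 and 54.2 CPM against 43.8 and 35.3 CPM in run 8 (-0.24 ± 0.19, adjusted p = 0.522).

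The other members that fell in B8 span the surface and the tunnel. Rpl22 had 67.0 and 39.1 CPM in run 6 controls and 182 and 162 CPM in run 8 controls, and 34.8 and 35.2 CPM and 67.3 and 78.7 CPM with IAA, below the controls of the same run throughout (-0.99 ± 0.16, edgeR adjusted p = 0.00273). Rpl23, which lies at the interface with the small subunit, had 111, 80.3, 184 and 183 CPM in the 4 controls and 52.6, 51.9, 103 and 94.4 CPM with IAA, again without overlap within a run. It had the smallest p of the family (-0.87 ± 0.12, edgeR adjusted p = 0.000742). Rpl34 had 23.4, 24.7, 56.6 and 54.7 CPM in controls and 14.4, 13.4, 27.8 and 26.8 CPM with IAA (-0.93 ± 0.17, adjusted p = 0.00544), and its run 8 IAA libraries lay near the run 6 controls.

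Rpl6 had 65.3, 40.1, 88.9 and 93.8 CPM in controls and 29.7, 20.9, 53.0 and 50.6 CPM with IAA (-0.90 ± 0.17, edgeR adjusted p = 0.00573). Rpl21 had 36.8, 32.9, 84.7 and 84.3 CPM in controls and 17.0, 21.8, 57.7 and 46.8 CPM with IAA (-0.73 ± 0.15, adjusted p = 0.0124). Both were lower in every IAA library than in the controls of its run. Rpl26 had 91.2, 61.8, 139 and 150 CPM against 57.7, 51.1, 88.1 and 81.7 CPM (-0.65 ± 0.13, edgeR adjusted p = 0.0113), and Rpl3 had 221, 219, 362 and 312 CPM against 154, 115, 234 and 219 CPM (-0.63 ± 0.12, adjusted p = 0.00756), with the same order within runs. Rpl18, Rpl5 and Rpl38 passed with changes of -0.59 ± 0.17, -0.53 ± 0.14 and -0.52 ± 0.13 at edgeR adjusted p-values of 0.04999, 0.0372 and 0.0247. With the block the adjusted p-values were 0.0998, 0.0716 and 0.0685, and the calls were lost in 14, 12 and 9 of 17 alternatives.

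Rpl10, a protein that joins the subunit late and lies near the peptidyl transferase centre, was the only member called higher. It had 4.19 and 2.06 CPM in run 6 controls and 7.83 and 5.01 CPM in run 8 controls, and 11.02, 10.04, 12.15 and 11.91 CPM with IAA. All 4 IAA libraries were above all 4 controls (1.17 ± 0.34, edgeR adjusted p = 0.0492), but the run 6 controls rest on 5 and 2 reads, the call was lost with any single run 6 library left out (lowest adjusted p = 0.0501, without control 2), and the block gave 0.0896. In C64 the same gene had a log2 fold change of -0.17 ± 0.28 after 6 h of IAA.

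The 2 runs of B8 differed in what they could show. Run 8 alone called 26 members, where 2753 of the 13535 genes tested passed. Run 6 alone called 0 of the 29 members with enough counts, where 17 of 11608 genes passed. Over the members tested in each, the median was -0.55 in run 8 with 39 of 41 below 0, and -0.41 in run 6 with 23 of 29 below 0. Without control library 2 of run 6, which stood apart, the count rose from 14 to 20, and without IAA library b of run 8 it dropped to 7, with 8 without control b and 9 without IAA a of that run.

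Whether IAA acted differently in B8 and in C64 was tested directly. The difference of the log2 fold changes passed for 0 members, where 0.0848% of all genes passed (7 members had an unadjusted p under 0.05, and DESeq2 and the likelihood-ratio test called 0). Its median was -0.11 against -0.02 over all genes. The nearest were Rpl28 at 1.07 ± 0.33, Rpl13a at -1.31 ± 0.40, Rpl34 at -0.85 ± 0.27 and Rpl10 at 1.31 ± 0.46, with edgeR adjusted p-values of 0.402, 0.402, 0.432 and 0.49. For Rpl28, in B8 the libraries with IAA had 30.5, 41.9, 31.3 and 37.0 CPM against 29.3, 18.5, 25.3 and 23.2 CPM in controls, whereas in C64 they had 26.3 and 16.9 CPM against 36.8 and 27.0 CPM. The IAA libraries were thus the higher in B8 and the lower in C64, and Rpl28 shares 23.8% of its span with Ube2s on the other strand.

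**Figure D3:**
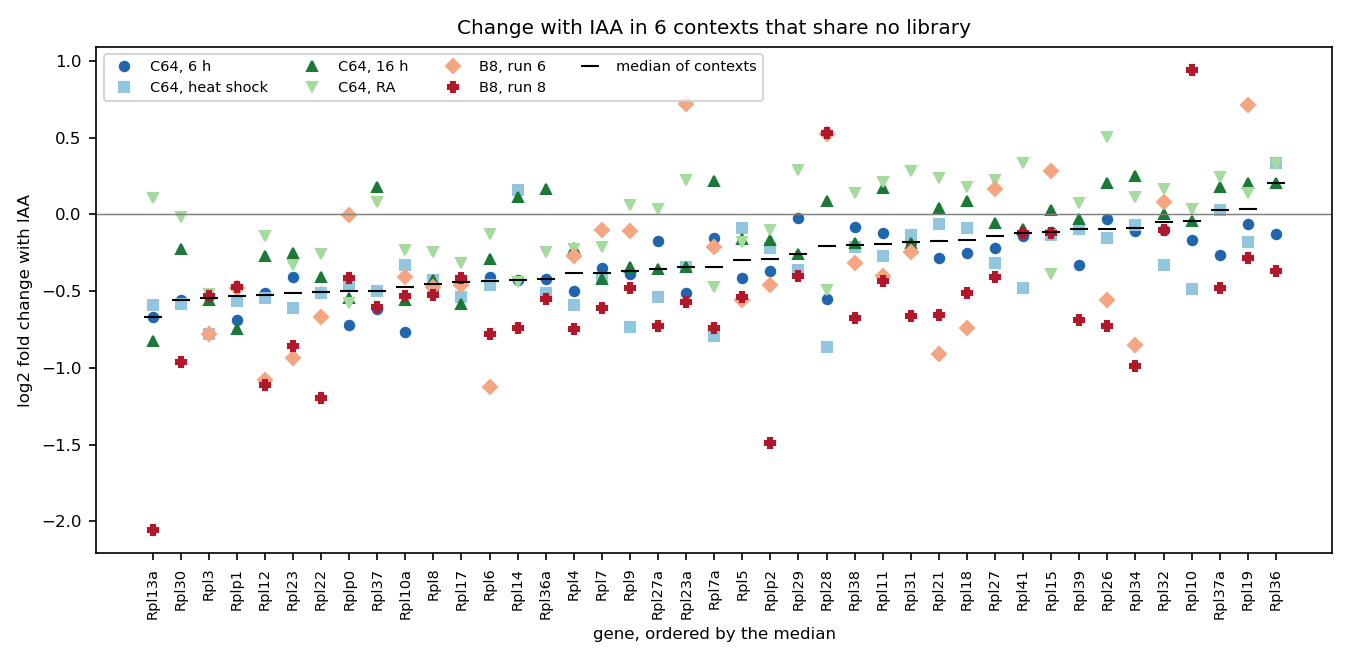
Each column is a gene and each symbol the log2 fold change with IAA in 1 of 6 contexts that share no library; the dash marks their median, by which the genes are ordered, and B8 run 6 is absent for the 12 genes with too few counts there. The largest loss is that of Rpl13a in B8 run 8 at -2.06, and the highest gain that of Rpl10 in the same run at 0.94.

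The 6 contexts share no library, but some share a run and its library sets, so they are not fully separate experiments. Of the 41 members, 13 had a lower mean CPM with IAA in all 6, against 5.13% of the 17179 genes tested. They were Rplp1, Rplp2, Rpl3, Rpl4, Rpl5, Rpl6, Rpl7, Rpl8, Rpl10a, Rpl12, Rpl17, Rpl22 and Rpl23. At the other extreme Rpl36 and Rpl37a were lower in 2 contexts, and Rpl10, Rpl19 and Rpl28 in 3. This tally takes in B8 run 6, where 29 members had enough counts and Rpl36, Rpl37a and Rpl10 did not. A single IAA term over all 24 libraries, with context as a covariate, had a median of -0.30 against 0.00 over all genes, with 38 of 41 members below 0.

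Rpl23 (chr11:97777527-97782437) and Rplp1 (chr9:61913284-61914542) passed that test, among 0.797% of all genes. Rpl23 had 225 and 147 CPM in run 2 controls against 160 and 119 CPM with IAA, 125 and 107 against 69.2 and 80.8 CPM in heat shock, 149 and 81.1 against 113 and 78.7 CPM in run 3, and 103 and 65.6 against 77.3 and 54.5 CPM in retinoic acid. The mean with IAA was the lower in these contexts as in B8, and the ranges were apart in heat shock and within both B8 runs (-0.55 ± 0.12, edgeR adjusted p = 0.0112). For Rplp1 the value was -0.59 ± 0.13 (adjusted p = 0.0188). Next came Rpl3 at -0.62 ± 0.15 (0.0531) and Rpl17 at -0.46 ± 0.13 (0.08). With library sets as blocks within contexts, 18 members passed, all lower, and 3.58% of all genes.

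By position in the subunit, the 4 stalk genes had a median of -0.54 over all contexts, the 3 genes around the peptidyl transferase centre -0.44 (with Rpl3 and Rpl8 at -0.62 and -0.44 and Rpl10 at 0.13), the 5S RNP genes Rpl5 and Rpl11, whose proteins bind Mdm2 when free of the ribosome, -0.23, the 8 tunnel genes -0.22 and the other 24 genes -0.25. These groups are small, and their differences were not tested. Over members, the change in 1 context followed that in another weakly, with Spearman's rho from -0.063 to 0.62 and a median of 0.268 over the 15 pairs of contexts, 14 of them above 0. The C64 contexts had rho from 0.388 to 0.599 with each other, and the B8 runs 0.62 over 29 genes. Each pair shares the genes' length and level but no library.

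Heat shock halts much of a cell's protein synthesis, and the ribosomal protein genes were followed through it with and without TBP. After 30 min at 42 °C, 38 of 41 members were below 0 with a median of -0.58 against 0.03 over all genes. The test called 6 members, all lower, where 3.02% of the 16332 genes passed, and both heat shock libraries lay below both controls for 28 members, against 23.2% of all genes. The summed occupancy was 2312 and 2213 CPM against 4096 and 3033 CPM in controls, so the heat shock libraries were close together and both below both controls.

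Rpl22 led the family, with 165 and 191 CPM in controls and 61.3 and 79.5 CPM in heat shock, far apart (-1.33 ± 0.23, edgeR adjusted p = 0.00608). Rpl5 (chr5:107900502-107909005), the 5S RNA carrier, had 168 and 131 CPM against 57.6 and 66.6 CPM (-1.25 ± 0.23, adjusted p = 0.00725). In both genes the heat shock libraries lay under 50% of the mean control. Its partner Rpl11 had 126 and 117 CPM against 142 and 120 CPM, overlapping, with a change of 0.12 ± 0.22 and an adjusted p of 0.863.

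Rpl39, which lines the exit tunnel, had 31.3 and 29.1 CPM in controls and 12.8 and 11.6 CPM in heat shock (-1.29 ± 0.29, edgeR adjusted p = 0.0229). Rpl21 had 114 and 97.5 CPM against 49.7 and 51.0 CPM (-1.05 ± 0.22, 0.0163), and Rpl7 had 79.7 and 55.2 CPM against 31.3 and 30.2 CPM (-1.12 ± 0.25, 0.0226). In all 3 the heat shock libraries differed little from each other and did not reach a control. Rpl3 had 643 and 429 CPM against 155 and 291 CPM (-1.26 ± 0.29, 0.0274), where set a was the higher in controls and the lower in heat shock, and the groups did not overlap. With the set as a block, 15 members passed, all lower, and 8.41% of all genes. Without control a the unblocked count was 1, and without heat shock a or b it was 15 or 14.

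Another 3 members had a change above 0, none past the test. Rpl36a had 14.7 and 12.2 CPM in controls and 16.2 and 15.0 CPM in heat shock (0.23 ± 0.33), Rpl26 217 and 148 CPM against 232 and 154 CPM (0.09 ± 0.26), and Rpl11 is given above. Only for Rpl36a did both heat shock libraries exceed both controls. Beside these changes, summed stem cell markers were at 2313 to 2475 CPM in heat shock and 1297 to 1514 CPM in controls, and the part of that in the result was not tested.

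The same heat shock in cells first depleted of TBP used other libraries throughout. Here the median was -0.59 against 0.04 over all genes, 40 of 41 members were below 0, and both heat shock libraries were the lower for 30 members against 23.6% of all genes. The test called 2 members, both lower, among 1.6% of all genes, and with the block 15 did, all lower, among 10.5%. Rpl22 had 125 CPM in each IAA library and 47.3 and 50.4 CPM with heat shock added (-1.34 ± 0.22, edgeR adjusted p = 0.0147). Rpl7 had 63.5 and 41.7 CPM against 22.04 and 23.74 CPM (-1.18 ± 0.26, 0.0415). Both were well apart from their IAA libraries. Rpl3 was at 418 and 319 CPM against 69.6 and 188 CPM (-1.51 ± 0.36, 0.058). The unblocked count was 0 without IAA library a, 7 without library a of both treatments and 17 without library b of both.

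**Figure D4:**
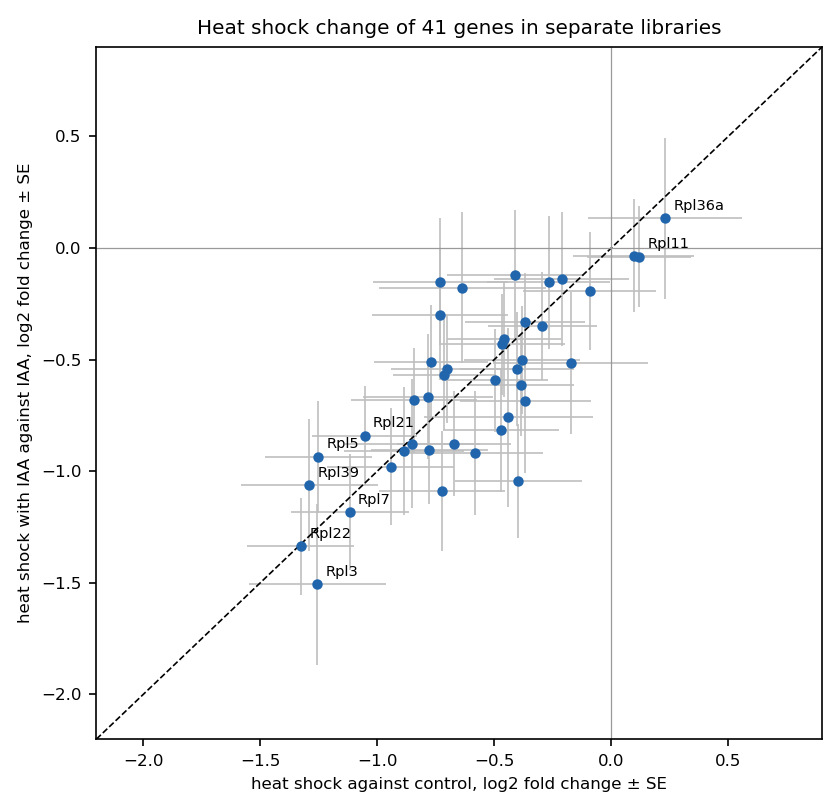
Each point is 1 of 41 genes, with the log2 fold change of heat shock against control on the x axis, that of heat shock with IAA against IAA alone on the y axis, bars of 1 SE and a dashed line of equal change. Rpl22, Rpl3 and Rpl7 lie at the low end of both axes, Rpl36a, Rpl11 and Rpl26 near or above 0 on both.

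Gene by gene, the change under heat shock without IAA had a Spearman's rho of 0.722 and a Pearson's r of 0.779 with that in IAA-treated cells over the 41 members, in comparisons without a common library but from the same run. Rpl36a was at 0.23 and 0.13, Rpl26 at 0.09 and -0.03, and Rpl11 at 0.12 and -0.04. The interaction of heat shock and IAA had a median of -0.03 against -0.01 over all genes and called 0 members and 0% of all genes (0 at an unadjusted p under 0.05, by DESeq2 and by the likelihood-ratio test). Rpl7a was nearest, at -0.64 ± 0.38 (edgeR adjusted p = 1). It had 57.4 and 38.07 CPM in controls, 41 and 30.7 CPM in heat shock, 49.6 and 35.7 CPM with IAA and 20.1 and 20.8 CPM with both, and was lowest with both treatments.

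Retinoic acid starts differentiation, in which stem cells slow their growth. After 16 h, 38 of 41 members were below 0 with a median of -0.47 against 0.02 over all genes, and the summed occupancy was 1920 and 1164 CPM against 2770 and 1497 CPM in controls 1 and 2. No member passed, among 0.0183% of all genes (2 members had an unadjusted p under 0.05, and DESeq2 and the likelihood-ratio test called 0). Both retinoic acid libraries lay below both controls for 4 members, against 17.2% of all genes. With the library number as a block, 15 members passed, all lower, but so did 11.4% of all genes.

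The smallest p without the block was that of Rpl37a, with 12.4 and 11.4 CPM in controls and 6.40 and 5.06 CPM in retinoic acid (-1.04 ± 0.36, edgeR adjusted p = 0.761, with the block 0.0367). Rpl31, at the tunnel exit, had 71.4 and 65.5 CPM against 52.7 and 32.7 CPM (-0.68 ± 0.26, 0.801), Rpl9 43.6 and 19.2 CPM against 19.8 and 10.6 CPM (-1.04 ± 0.45, 0.806), and Rpl38 158 and 89.8 CPM against 90.7 and 52.2 CPM (-0.79 ± 0.34, 0.811). Groups were apart for Rpl37a and Rpl31, and overlapped for Rpl9 and Rpl38, where each pair still went down. Rpl38 had the smallest p with the block (-0.79 ± 0.13, edgeR adjusted p = 1.755e-07). Stem cell markers were lower in these libraries, as given above, and the part of that in the result was not tested.

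With IAA present, retinoic acid gave a median of -0.30 against 0.03 over all genes and 36 of 41 members below 0. None passed with or without the block, where 0% and 1.82% of all genes did (0 at an unadjusted p under 0.05 without the block, 0 by DESeq2 and by the likelihood-ratio test), and both lower libraries came from retinoic acid for 4 members against 14.5% of all genes. Rpl37a again had the smallest p, with 17.8 and 8.93 CPM against 6.37 and 7.02 CPM (-0.97 ± 0.45, edgeR adjusted p = 1). Rpl14, which has few reads, was the lowest at -1.23 ± 0.76, and its libraries 1 and 2 with both treatments stood at 11.6 and 1.87 CPM. Between cells with and without IAA, rho over members was 0.367. The interaction called 0 members and 0% of all genes (median 0.15 against 0.02, 0 at an unadjusted p under 0.05, by DESeq2 and by the likelihood-ratio test).

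B8 controls were compared with the C64 controls of run 2. All 41 members were below 0 in B8 with a median of -0.63 against 0.02 over all genes, and the 4 B8 controls lay below both C64 controls for 15 members, against 9.42% of all genes. The summed occupancy was 1275 to 3150 CPM in the 4 B8 controls and 3033 and 4096 CPM in the C64 controls of run 2, which overlap, and the C64 controls of run 3, at 2770 and 1497 CPM, lay within the B8 range. None passed, nor did any other gene (0%, with 13 members at an unadjusted p under 0.05 and 0 by DESeq2 and by the likelihood-ratio test). The median depended on the run. It was -1.22 with 19 members called when only run 6 stood for B8, where 550 of 15250 genes passed. It was -0.28 with 1 member called when only run 8 did, where 785 of 14989 genes passed. Rpl10 had the smallest p, with 15.6 and 11.1 CPM in C64 and 4.19, 2.06, 7.83 and 5.01 CPM in B8 (-1.36 ± 0.45, edgeR adjusted p = 0.8287), and no B8 library reached C64. Since the lines were sequenced in different runs, line and run cannot be told apart.

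Features that the choice of genes did not use were set beside these changes. Small nucleolar RNAs are processed from introns, and 14 of the 41 tested genes hold a row named for 1 in their span. These hosts had a median of -0.41 over all IAA contexts against -0.22 for the other 27, of -0.72 against -0.47 in heat shock, and of -0.82 against -0.51 in heat shock with IAA. In retinoic acid the medians were -0.47 and -0.46. Counting hosts by the GENCODE annotation instead, 18 hosts and 23 others had -0.40 and -0.21 over the IAA contexts. The 2 sets overlap widely, and reads in the bases of a small RNA are not in the gene's count.

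**Figure D5:**
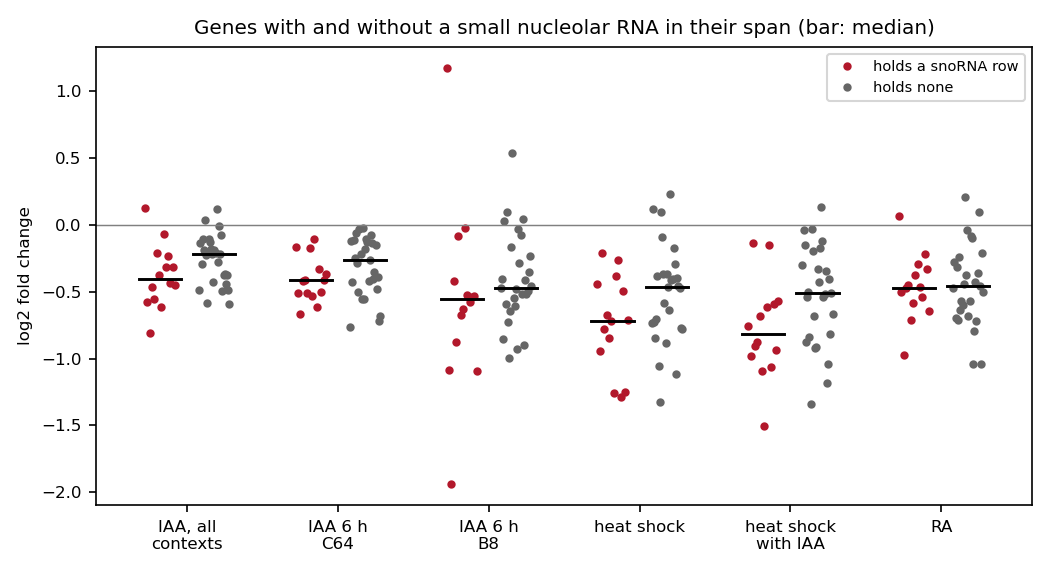
Log2 fold changes of the 14 tested genes that hold a small nucleolar RNA row (red) and of the 27 that hold none (grey) in 6 comparisons, with bars at the medians. Bars of hosts lie lower in both heat shock comparisons (-0.72 against -0.47 and -0.82 against -0.51), are close in retinoic acid, and the points overlap in all.

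The study's lists of TATA and TATA-less genes place 17 tested members in the first and 24 in the second. Medians after 6 h of IAA in C64 were -0.42 and -0.31, and in B8 -0.29 and -0.56, so the lists stood in opposite order in the lines, a difference that was not tested. The list names are the study's labels. In the search 40 to 20 bases before the start, TATA was found only at Rpl4, on the TATA list, and Rpl12, on the TATA-less list. The letters TATAAA were at 0 of the 40 start sites, and some members have no start site entry. Among tested members with a start site, the 25 with a pyrimidine run of 8 and the 5 without had medians of -0.28 and -0.49 over the IAA contexts and of -0.41 and -0.67 in heat shock. The order was the opposite for IAA in B8, at -0.53 with and -0.24 without a run, and in retinoic acid, at -0.57 and -0.43. Members that share more than 5% of their span with another gene (14) and the rest (27) had medians of -0.33 and -0.37 after 6 h of IAA. Over the 41 members, control occupancy per kb had a Spearman's rho of -0.352 with the IAA effect over all contexts and of -0.136 with the heat shock effect. That occupancy comes from C64 control libraries that are also part of the reference in both effects. Their spread alone can make rho negative, so no conclusion is drawn from it. Length, taken as the bases not shared with another annotated gene, had rho of -0.227 and -0.197.

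Genes for the small subunit gave the nearest comparison. Of 32, 0 passed after 6 h of IAA (median -0.34, 13 with the block), 6 in heat shock (-0.68, 12 with the block), 0 of 31 in retinoic acid (-0.49, 13 with the block) and 10 of 29 in B8 with IAA (-0.47, 6 with the block), all lower. Of all genes, 0.0433% passed after 6 h of IAA, 3.02% in heat shock, 0.0183% in retinoic acid and 5.82% in B8 with IAA. With the block these shares were 1.19%, 8.41%, 11.4% and 3.4%. Over all IAA contexts 5 small-subunit genes passed, where 0.797% of all genes did. Their median was -0.32, led by Rps9 at -1.19 ± 0.18 (edgeR adjusted p = 0.000323). Paralogs of the large-subunit genes, of which 5 of 9 were tested, had a median of -0.10 after 6 h of IAA, 0.00 over all IAA contexts and -0.06 in heat shock, with none called.

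Genes for building ribosomes had no common direction in heat shock. Of 51 tested, 2 rose and 2 fell, with a median of 0.10, where 3.02% of all genes passed. With the block 9 passed, where 8.41% of all genes did. Lsg1, which takes part in the last steps of 60S maturation, was at 1.14 ± 0.22 (edgeR adjusted p = 0.00939), and Nmd3, the adaptor that exports the 60S subunit, at -1.18 ± 0.24 (0.0121). With IAA over all contexts their median was -0.08 and 1 passed, Npm1, the nucleolar chaperone, at -0.97 ± 0.15 (edgeR adjusted p = 0.000485). In B8 with IAA, 5 of 47 fell and 1 rose, with a median of -0.09, where 5.82% of all genes passed. In retinoic acid 0 passed, with a median of -0.24. With the block 15 passed there, all lower, where 11.4% of all genes did. The lists share library sets with the members, and no test of 1 list against another was made.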

How the data were processed

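Pol II CUT&Tag was read as counts per gene. Per the study's methods and the file headers, the authors aligned reads to mm10 with Bowtie2, kept PCR duplicates, subsampled each run to a common depth, and counted read pairs over whole genes with featureCounts 2.0.0 on Ensembl release 102, without strand. The deposited values are raw counts; a pair over 2 genes is not counted, and duplicates are not independent molecules. SEs and p-values rest on the spread between libraries. Column names do not give the numbers of the run 2 and B8 run 8 libraries, which are named here by their column style. The depositors' TATA and TATA-less gene lists served as labels only.

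Genes were filtered with edgeR 4.0.16 filterByExpr (minimum count 20), scaled by TMM and tested with glmQLFit and glmQLFTest in R 4.3.3, with Benjamini-Hochberg adjustment over all genes tested at 0.05. B8 tables were restricted to the 27752 genes of the C64 tables. The likelihood-ratio test and DESeq2 1.42.0 were alternatives. Fits were tested on simulated data. Deviations from group means correlated at 0.144 to 0.631 between same-set libraries in run 2 and 0.543 to 0.721 in run 3, so blocked values are printed beside the main ones; in B8 they were -0.038 and -0.0013. Errors after ± are SE for fold changes. A CPM pseudocount of 0.5 was used for log means only. Named genes are members past the threshold (up to 10 a direction), or else the 4 with the smallest p, and those at the ends of a range. Members and lists were chosen with earlier results of these data known.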

Additional observations from a re-analysis of the deposited data

How the results depend on the processing

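Counts of called genes depended on the fit, and the causes were not tested unless the setting itself shows them. With the library set or number as a replicate block the count was 15 for IAA at 6 h, 3 at 16 h, 15 for heat shock, 15 for heat shock with IAA, 5 for IAA during heat shock, 15 for retinoic acid, 2 for IAA during retinoic acid and 18 over all contexts; the block moved no other count by over 1.5 times. Without a filter on low counts, heat shock gave 2 members and 159 of 23105 genes, and heat shock with IAA 15 members and 955 of 23362 genes. For heat shock with IAA, DESeq2 gave 8 members and 447 of 16486 genes, and the likelihood-ratio test 12 members and 800 genes. A fit of the 4 groups of the run together gave 1 member and 217 of 16961 genes. Over all IAA contexts DESeq2 gave 12 members and 334 of 17179 genes, and the likelihood-ratio test 8 members and 244 genes. In B8 with IAA, 1 member and 36 of 12686 genes passed without the run term. Run 6 alone gave 0 members and 17 of 11608 genes, and run 8 alone 26 members and 2753 of 13535 genes. For B8 against C64 controls, run 8 alone gave 1 member and 785 of 14989 genes. Run 6 alone gave 19 members, with a median of -1.22, and 550 of 15250 genes. Taking all genes of the B8 tables, chosen after seeing the data, left the member counts within 1.5 times of those of the main fit. No paired fit was made across lines, whose numbers are not shared. With the block, the C64 fits of 2 groups keep 1 residual degree of freedom and borrow their spread from other genes.

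With each library left out in turn, counts ran from 0 to 1 for IAA at 6 h (1 without IAA a), stayed at 0 for IAA at 16 h, during heat shock and during retinoic acid, and ran from 1 to 15 for heat shock, 0 to 17 for heat shock with IAA, 0 to 2 for retinoic acid (2 without control 2), 0 to 3 for retinoic acid with IAA (3 without library 1 of both treatments) and 7 to 20 for IAA in B8. Over all contexts they ran from 1 (without control a, control 1 or retinoic acid 1) to 10 (without retinoic acid with IAA 1). Medians ran from -0.55 to -0.17 for IAA at 6 h, -0.74 to 0.33 at 16 h (above 0 without control 1 or IAA 2), -0.7232 to -0.3113 for heat shock, -0.8113 to -0.3939 for heat shock with IAA, -0.4009 to -0.3194 for IAA during heat shock, -0.87 to 0.03 for retinoic acid (above 0 without control 1), -0.83 to 0.14 for retinoic acid with IAA (above 0 without IAA 1 or library 2 of both treatments), and -0.5884 to 0.3714 for IAA during retinoic acid. They ran from -0.59 to -0.46 for IAA in B8, -0.82 to -0.36 for B8 against C64 controls, -0.39 to -0.25 over all contexts, -0.2841 to 0.2037 for the heat shock interaction, -0.37 to 0.64 for the retinoic acid interaction and -0.32 to 0.12 for B8 minus C64. A lone library was taken to vary like the other group. Counts of all genes called are not given for these refits, and whether the members moved with them was not tested. Depth limits B8 run 6 most, where 29 members had enough counts.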
